A study of Mus musculus with 18 samples.

Results

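Growth differentiation factor 15 (GDF15) lowers food intake, so its effect on the liver was read here against mice that ate equally little. The comparison set 6 livers from GDF15-injected mice against 6 livers from pair-fed mice and covered the 12867 of 16245 genes in the table that had at least 10 estimated counts in at least 6 of these 12 libraries. All mice were male and wild-type, C57BL/6 by the labels and of the C57BL/6J background by the study's methods, and had been given a diet rich in fat and fructose, which brings on non-alcoholic steatohepatitis (NASH), and housed at about 29 °C, both from 8 weeks of age. The GDF15 group was injected under the skin with recombinant GDF15 once a day early in the light phase, the daily ration of the pair-fed group was set by the previous intake of the GDF15 mice, and a further group of 6 received vehicle and ate freely. The dose given to the sequenced mice is not stated by the labels. Pair-feeding matched the amount eaten and not body weight, and body weight and meal times of each sequenced mouse were not used here. The study counts 6 mice in each sequenced group, so a replicate is taken as 1 mouse, and the p-values measure the spread between these mice.

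GDF15 is a hormone of the transforming growth factor-β superfamily that cells release under mitochondrial or endoplasmic reticulum stress. It acts through the receptor GFRAL, with its partner RET, on neurons of the hindbrain, and these reduce appetite. In steatohepatitis hepatocytes fill with lipid droplets and are injured, macrophages gather around them, and hepatic stellate cells turn into contractile cells that lay down collagen. The receptor gene Gfral was not analysed here. The mouse's own Gdf15 transcript, to which injected protein adds nothing, had normalized counts from 421 to 1564 (median 944) with GDF15 and from 358 to 1651 (median 1115) with pair-feeding (log2 fold change -0.16, SE 0.40, adjusted p = 0.806).

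The libraries held 16508864 to 25001486 counts with GDF15 and 17180057 to 35301853 with pair-feeding, and depth was not spread evenly over the replicate numbers: pair-fed replicates 1 to 3 held 17180057 to 17926397 counts and replicates 4 to 6 held 25047723 to 35301853. Liver identity was plain, with albumin taking 5.02% to 7.84% of the counts in the 12 libraries. In a principal component analysis of the 12 libraries, the first component held 39.2% of the variance and put all GDF15 libraries on one side, at 11.9 to 36.6, and all pair-fed libraries on the other, at -39.4 to -11.6. The second component held 14.0%, and GDF15 replicate 4 lay at its end, at 26.0. That liver had the highest counts of its group for serum amyloid and fibrinogen genes and the lowest for several stellate and endothelial genes. For some of the results that rest on it, values without it are given as well. In whole liver, fewer cells of a type and less RNA per cell cannot be told apart.

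**Figure D1:**
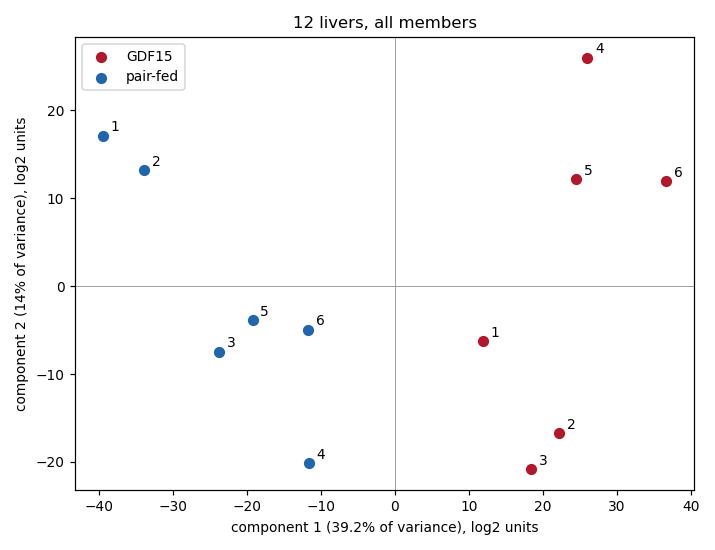
The 12 libraries are placed by their first 2 principal components, computed from log2(normalized count + 1) of the 12867 genes; each point is 1 liver with its replicate number. All 6 GDF15 livers lie above 0 on the first component and all 6 pair-fed livers lie below it, and GDF15 replicate 4 lies highest on the second.

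At an adjusted p under 0.05 and an absolute log2 fold change over 1, 388 genes differed between GDF15 and pair-feeding, 3.02% of those covered: 305 were lower with GDF15 (2.37%) and 83 were higher (0.645%). Fold changes throughout are GDF15 minus pair-fed on the log2 scale, and adjusted p-values are from DESeq2's Wald test with Benjamini-Hochberg adjustment over the whole table. With no limit on size, 1893 genes were lower (14.7%) and 1904 were higher (14.8%), and 2321 of these 3797 changed by under 0.5. Gene lists below are counted with no limit on size, and 14.7% and 14.8% are the shares to read their counts against. The balance between the directions depends on scaling. When libraries were scaled by their total counts in place of median-of-ratios size factors, the median of all genes moved from 0.01 to -0.15, the share of calls that were lower went from 49.9% to 87.3% with no limit on size and from 78.6% to 89.7% past both thresholds. Changes smaller than this shift depend on the scaling, and calls of larger rises can as well. Of the 1904 higher genes 620 also passed with total counts, and of the 83 past both thresholds 61 did. All 1893 lower genes, and all 305 past both thresholds, passed again.

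The vehicle group shows where these genes stood in mice that ate freely. The 305 lower genes had a median of -1.28 against pair-fed and -1.52 against vehicle livers, while the same genes had a median of -0.21 in pair-fed against vehicle. The 83 higher genes had medians of 1.43, 1.47 and 0.06. These comparisons share samples, so the values are set side by side only. All 6 GDF15 livers lay below all 6 pair-fed livers for 176 of the 305 lower genes and above them for 38 of the 83 higher genes. Over all 12867 genes the groups did not overlap for 718 lower genes (5.58%) and 698 higher genes (5.42%).

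**Figure D2:**
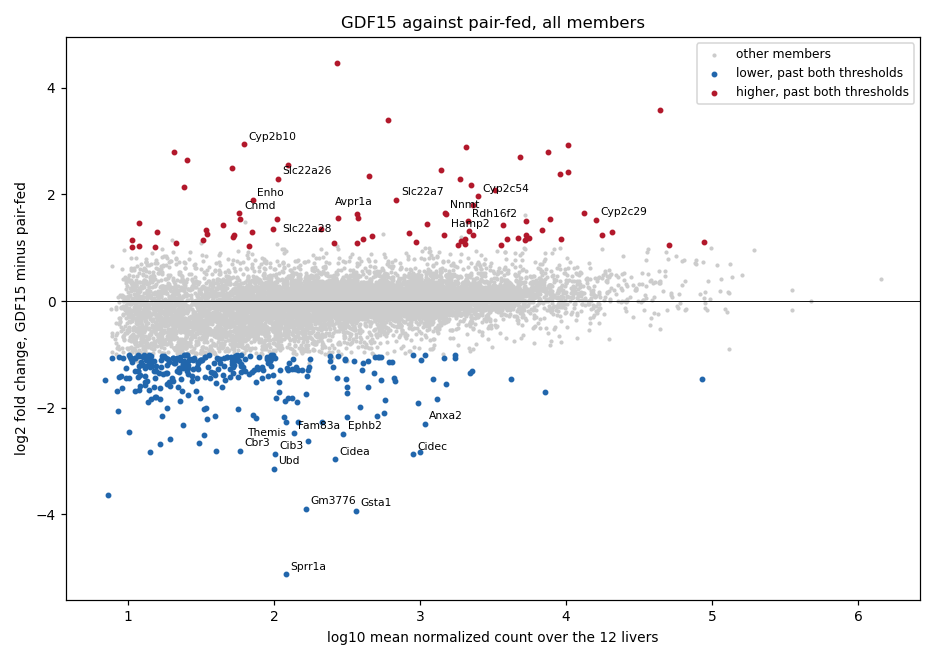
Each point is 1 of the 12867 genes; the horizontal axis is the log10 of the mean normalized count of the 12 livers and the vertical axis is the log2 fold change, GDF15 minus pair-fed. Coloured points passed both thresholds, 305 lower and 83 higher, and the genes written out are the 12 largest falls and 12 largest rises without overlap between groups and with a mean of at least 50.

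The largest fall was in an epithelial injury gene. Sprr1a, which encodes a cornified envelope protein that wounded epithelia induce, had normalized counts from 2.41 to 13 (median 5.56) with GDF15 and from 84.1 to 522 (median 181) with pair-feeding. Every GDF15 liver was below every pair-fed liver, and the log2 fold change was -5.12 (SE 0.52, adjusted p = 1.29e-19); vehicle livers had 244 ± 103 (SD, n = 6). Anxa2, an annexin that links membranes to actin, had counts from 283 to 470 (median 353) with GDF15 and from 815 to 3125 (median 1328) with pair-feeding and also separated the groups, at -2.3 (SE 0.32, adjusted p = 1.75e-10). The promoters of both genes are shown because both hold the letters TGACTCA, the AP-1 element, which is named for the factors induced by injury and growth signals, and which was found in 4.03% of the promoters of all genes covered, in 8.08% of those of the lower genes and in 9.46% of those of the higher genes. The stretches are the 150 bases before the RefSeq start on GRCm38.p6, read 5′ to 3′ on the strand of the gene; capitals mark TGACTCA, which here reads TGAGTCA on the printed strand. They also mark TATAAA in both and the letters CCAAT in Sprr1a. A match of letters is a description and not a site shown to be used.
Sprr1a, chr3:92485882-92486031, minus strand: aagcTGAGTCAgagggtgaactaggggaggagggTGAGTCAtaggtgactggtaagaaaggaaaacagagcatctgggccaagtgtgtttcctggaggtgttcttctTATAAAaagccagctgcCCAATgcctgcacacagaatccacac
Anxa2, chr9:69453533-69453682, plus strand: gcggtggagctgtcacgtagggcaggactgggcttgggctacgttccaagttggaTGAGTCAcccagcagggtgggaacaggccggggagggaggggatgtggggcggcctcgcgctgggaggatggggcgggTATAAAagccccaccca

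The list of stressed-epithelium and injury genes moved with these: 16 of its 19 measured members were lower, with a median of -1.0 against 0.01 over all genes. Ly6d fell by 2.84, S100a11 fell by 1.98, and Anxa5, which binds exposed phosphatidylserine, fell by 1.46. The cytoskeleton list had 13 of 20 members lower and a median of -0.57. In it was Tubb2b, a β-tubulin scarce in healthy liver. Its counts ran from 0.00 to 8.19 (median 4.41) with GDF15 and from 9.07 to 59.7 (median 16.9) with pair-feeding. The log2 fold change was -2.68 (SE 0.57, adjusted p = 4.86e-05). All normalized counts of Tubb2b with GDF15 lay below the minimum count of the filter. Tubb2b may therefore have been covered through pair-fed livers alone, and such a choice favours a fall. Its fall and the separation of its groups are therefore weak evidence. Tubb2a, in the same list, fell by 1.71. Other large falls without overlap were in Ubd, a ubiquitin-like modifier, at -3.15, in the ephrin receptor Ephb2 at -2.49, in Themis at -2.62, in Cib3 at -2.86 and in Fam83a at -2.48. Ubd, a target of inflammatory cytokines, had counts from 7.23 to 29.5 (median 20.8) with GDF15 and from 134 to 267 (median 160) with pair-feeding.

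Of 17 collagen chains 14 were lower and 1 was higher, with a median of -0.88. Their summed expression overlapped between the groups, from 1508 to 1614 CPM (counts scaled to library size) with GDF15 and 1561 to 1987 CPM with pair-feeding. The most abundant chains weigh most in such a sum, and the share of each chain was not examined. The overlap therefore does not describe the chains one by one. Col1a1, the main chain of fibrillar collagen in scars, had counts from 126 to 386 (median 247) with GDF15 and from 594 to 1501 (median 849) with pair-feeding (log2 fold change -1.86, SE 0.32, adjusted p = 1.88e-07), and vehicle livers had 1404 ± 577 (SD, n = 6). Col3a1, its partner in young scar, had counts from 492 to 751 (median 545) with GDF15 and from 1352 to 3152 (median 1916) with pair-feeding; the highest GDF15 value was replicate 1, far above the rest of its group, and the log2 fold change was -1.84 (SE 0.22, adjusted p = 1.48e-14). Among matrix glycoproteins 21 of 27 were lower, with a median of -0.65, and 1 was higher: Fn1, which hepatocytes secrete into plasma as well as matrix, at 0.37 (adjusted p = 0.00129). Their sums overlapped as well, at 2033 to 2736 CPM with GDF15 and 2137 to 2558 CPM with pair-feeding. These sums include Fn1, and the share of each glycoprotein gene in them was not examined. Against the 3 largest pair-fed libraries alone 10 glycoprotein genes were lower. Of the enzymes and inhibitors that crosslink and remodel matrix 11 of 19 were lower and 1 higher. Timp1, an inhibitor of matrix metalloproteinases that rises in fibrosis, had counts from 1.21 to 13.9 (median 4.0) with GDF15 and from 12.5 to 69 (median 27.9) with pair-feeding, with a small overlap between the groups (log2 fold change -2.59, SE 0.48, adjusted p = 2.50e-06).

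Genes of the cells that make matrix, and of the signals they answer, were lower in part. In the list of TGF-β and PDGF signalling 10 of 22 members were lower, 1 was higher and the median was -0.32; without pair-fed replicate 1 the lower count was 6. Tgfbr2, a receptor for TGF-β, fell by 0.94. Of 13 markers of quiescent stellate cells 7 were lower, with a median of -0.44, and against the 3 largest pair-fed libraries alone 3 were. Lrat, which stores vitamin A as ester, had counts from 225 to 374 (median 305) with GDF15 and from 418 to 610 (median 509) with pair-feeding (log2 fold change -0.76, SE 0.15, adjusted p = 1.48e-05). Of 10 markers of activated stellate cells 5 were lower, with a median of -0.76, 8 were lower without pair-fed replicate 4 and 3 against the 3 largest pair-fed libraries alone. Acta2, smooth muscle actin and the defining marker of these cells, did not pass with all livers, at -0.93 (SE 0.41, adjusted p = 0.0763), with counts from 19.3 to 56.8 (median 52.5) with GDF15 and from 26.4 to 178 (median 61.8) with pair-feeding; its lowest value is GDF15 replicate 4. Without GDF15 replicate 4 Acta2 was at -0.77 (adjusted p = 0.215). It passed without pair-fed replicate 4, 5 or 6 (adjusted p = 0.0187, 0.0399 and 0.0397). It was at -1.37 in replicates 1 to 3 alone (adjusted p = 6.76e-04) and at 0.09 in replicates 4 to 6 alone (adjusted p = 0.923). Tagln, an actin-binding protein of contractile cells, was lower at -0.92 (adjusted p = 1.30e-04). Summed over the quiescent list, expression ran from 189 to 337 CPM with GDF15 and 373 to 454 with pair-feeding. Over the activated list it ran from 56.6 to 69.8 and 92.2 to 158 CPM, and neither pair of ranges overlapped. CPM scales by total counts, which moves genes down with GDF15. The gap of the quiescent list, 337 against 373 CPM, is small and was not checked with size factors.

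Genes of lipid-associated macrophages, the TREM2-positive macrophages that take up lipid in steatohepatitis, were lower, whereas the markers of resident Kupffer cells mostly did not pass the test. Of 16 lipid-associated macrophage genes 12 were lower, with a median of -1.33. Gpnmb, a membrane glycoprotein of lysosome-rich macrophages, had counts from 12.1 to 78.5 (median 38.4) with GDF15 and from 78.3 to 291 (median 191) with pair-feeding (log2 fold change -2.17, SE 0.45, adjusted p = 3.37e-05). Trem2, the lipid receptor of these cells, had counts from 10.8 to 73.3 (median 47.7) with GDF15 and from 66.8 to 156 (median 107) with pair-feeding (log2 fold change -1.24, SE 0.29, adjusted p = 2.41e-04). The highest GDF15 livers reached the lowest pair-fed ones for both genes. Of 11 Kupffer markers 1 was lower, Cd5l at -0.45 (adjusted p = 0.0469), with a list median of -0.00. Clec4f, which marks Kupffer cells alone, had counts from 812 to 1668 (median 1167) with GDF15 and from 914 to 1556 (median 1175) with pair-feeding and a difference of -0.01 (SE 0.18, adjusted p = 0.981). Cd5l did not pass with edgeR (adjusted p = 0.066) or without any one of several livers. Pair-fed livers 1 to 3 were higher than 4 to 6 for Gpnmb, the same livers that were sequenced less deeply, and against the 3 deepest pair-fed libraries alone Gpnmb was at -1.40 and Trem2 at -0.84 (adjusted p = 0.053 and 0.079). Spp1 and Lpl, counted with the macrophages, are also made by bile duct cells and fat-laden hepatocytes.

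Of 16 general leukocyte genes 14 were lower, with a median of -0.73, but against the 3 largest pair-fed libraries alone 2 were lower, with a median of -0.45. All 9 measured genes of major histocompatibility complex (MHC) class II antigen presentation were lower, with a median of -0.92. H2-Aa, a class II α-chain, had counts from 358 to 874 (median 579) with GDF15 and from 953 to 1557 (median 1091) with pair-feeding (log2 fold change -1.01, SE 0.21, adjusted p = 2.76e-05). Ptprc, the pan-leukocyte protein CD45, had counts from 107 to 200 (median 120) with GDF15 and from 175 to 295 (median 236) with pair-feeding (log2 fold change -0.74, SE 0.21, adjusted p = 0.00228). Cd14, the co-receptor for lipopolysaccharide that hepatocytes also make, fell by 1.71. Of 17 chemokines and receptors 8 were lower, among them Ccl2, which recruits monocytes, at -2.03, and its receptor Ccr2 at -1.35; 1 was higher, Cxcl12 at 0.37. Of 6 T and NK cell genes 0 passed in DESeq2 or in edgeR and 1 had an unadjusted p under 0.05; summed they ran from 2.48 to 5.76 CPM with GDF15 and 4.91 to 7.36 CPM with pair-feeding. Of the 6 B cell genes 3 were lower, of which Cd79b did not pass with edgeR (adjusted p = 0.0531) or with the replicate number as a block (adjusted p = 0.0578) and was lost without any one of several livers. Neither set of 3 replicates alone gave more than 1 call among the 6. In the interferon and immunoproteasome list 4 of 22 were lower and 1 higher (18.2% and 4.55%), against 14.7% and 14.8% over all genes. With total counts as size factors 11 interferon genes were lower. Ptprc was at -0.44 (adjusted p = 0.222) against the 3 deepest pair-fed libraries alone.

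**Figure D3:**
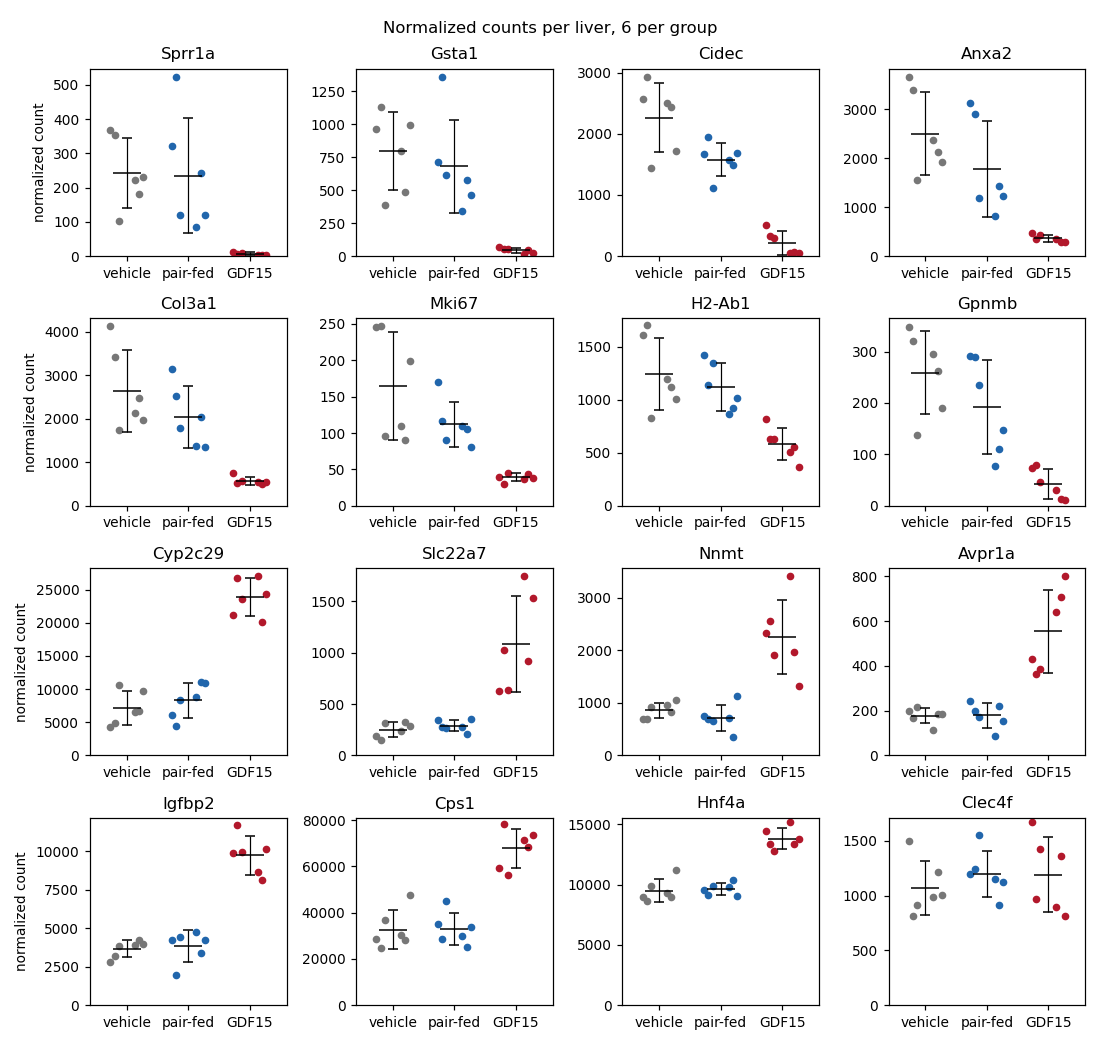
Normalized counts (vertical axes, linear, from 0) of 16 genes; each point is 1 liver in replicate order, grouped as vehicle, pair-fed and GDF15 (n = 6 each), and the bars are mean ± SD. For Sprr1a, Gsta1, Cidec and Anxa2 every GDF15 liver lies below every pair-fed liver, for Cyp2c29, Slc22a7, Cps1 and Igfbp2 every one lies above, and for the Kupffer cell marker Clec4f the groups overlap.

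Endothelial and bile duct markers passed for few genes. Of 16 sinusoidal markers 1 was lower, the hyaluronan receptor Lyve1 at -0.90 (adjusted p = 4.88e-07), and the median was -0.06. Of 8 vascular markers 3 were lower, of which Fabp4 is also a target of PPARγ in hepatocytes and macrophages. Of 8 bile duct markers 2 were lower, Muc1 at -1.2 and Spp1 at -1.36; Krt19, the duct keratin, was at -0.25 (adjusted p = 0.643). Summed over the duct list, expression was 65.9 to 106 CPM with GDF15 and 124 to 350 CPM with pair-feeding, ranges that did not overlap. The sum includes Spp1, which is also counted with the macrophages, and the share of each gene in it was not examined. The other 6 duct markers did not pass, so the sum does not stand for duct markers as a whole. Of the few measured markers of other tissues, such as globins and pancreatic enzymes, 1 of 4 was higher (Cela1, at 0.81).

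Lipid droplet genes were lower. Of 22 PPARγ targets and droplet proteins 16 were lower, with a median of -0.64. Without GDF15 replicate 4, 13 were lower. Cidea, which fuses droplets and is made by fat-laden liver, had counts from 14.1 to 89.9 (median 64.3) with GDF15 and from 165 to 911 (median 403) with pair-feeding, with no overlap (log2 fold change -2.96, SE 0.40, adjusted p = 2.80e-11); vehicle livers had 572 ± 125 (SD, n = 6). Its relative Cidec had counts from 45 to 510 (median 176) with GDF15 and from 1111 to 1943 (median 1617) with pair-feeding (log2 fold change -2.88, SE 0.50, adjusted p = 4.18e-07). The receptor gene Pparg fell by 0.89, Mogat1, which makes diacylglycerol, fell by 1.27, Cd36, a fatty acid carrier, fell by 0.74, and Plin2, the coat protein of droplets, fell by 0.71. Apoa4, an apolipoprotein that rises with liver fat, gave the largest fall in mean count among the called genes, from 33035 to 59806 (median 45492) with GDF15 and from 92278 to 154365 (median 128965) with pair-feeding (log2 fold change -1.47, SE 0.16, adjusted p = 2.81e-17). Summed over the list, expression was 2826 to 4730 CPM with GDF15 and 7124 to 10995 CPM with pair-feeding. The sum includes the abundant Apoa4, and the share of each gene in it was not examined. It therefore does not stand for the droplet proteins as a whole.

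Calls among the core enzymes that build and burn fat depended on the scaling and on the set of livers. In lipogenesis 2 of 22 genes were lower and 3 higher, with a median of -0.01. These are 9.09% and 13.6%, under the 14.7% and 14.8% over all genes. Fasn, fatty acid synthase, was at -0.16 (adjusted p = 0.74). Lpin1, a phosphatidate phosphatase, was higher at 1.18 with all livers and at 0.71 without GDF15 replicate 4 (adjusted p = 0.119). In fatty acid oxidation and ketogenesis 7 of 26 were lower and 1 higher, with a median of -0.10. Acaa1b, a peroxisomal thiolase, had counts from 24004 to 41147 (median 37224) with GDF15 and from 42847 to 59336 (median 52842) with pair-feeding (log2 fold change -0.53, adjusted p = 3.98e-05). Both lists changed sign between sets of replicates. In replicates 1 to 3 the median was -0.35 for lipogenesis and 0.14 for oxidation, and in replicates 4 to 6 it was 0.27 and -0.33. Of the oxidation genes 2 were lower and 9 higher in replicates 1 to 3, and 13 were lower in replicates 4 to 6. With total counts as size factors 16 were lower. Of the lipogenesis genes 10 were lower and 1 higher in replicates 1 to 3, 2 and 7 in replicates 4 to 6, and 6 and 2 with total counts. In cholesterol synthesis 1 of 23 was higher (Ebp, at 0.49), and of 26 subunits of oxidative phosphorylation 2 were lower and 2 higher; with total counts 15 subunits and 3 cholesterol genes were lower.

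Cell-division genes were lower. Of 32 members 24 were lower, with a median of -0.85. Mki67, a chromosome-coating protein of cycling cells, had counts from 30 to 45 (median 38.8) with GDF15 and from 80.3 to 170 (median 108) with pair-feeding (log2 fold change -1.52, SE 0.27, adjusted p = 4.15e-07). Ccnb2, a cyclin of mitosis, had counts from 8.99 to 23.5 (median 13.9) with GDF15 and from 30.5 to 44.2 (median 36.4) with pair-feeding (log2 fold change -1.26, SE 0.27, adjusted p = 6.56e-05). Cdk1, the kinase that cyclin B drives, fell by 0.80 (adjusted p = 0.0163) with all livers and was at -0.63 without pair-fed replicate 1 (adjusted p = 0.0685). These are low counts in a tissue where few cells divide: the whole list summed to 172 to 216 CPM with GDF15 and 215 to 343 CPM with pair-feeding. The falls were larger in replicates 1 to 3, with a median of -1.06, than in replicates 4 to 6, with a median of -0.52, and the difference was not tested. In these sets 19 and 5 genes were lower, and against the 3 largest pair-fed libraries alone 9 were.

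The promoters of these 3 genes are shown to describe sequence that cell-division genes share. The shares below cover all 25 genes of the list with a promoter, whether lower or not. They describe the list and give no support for its change with GDF15. CCAAT, the element of the factor NF-Y, was found in 92.6% of the 27 promoters of cell-division genes, against 37.5% of the promoters of all genes covered and 37.7% of those of all lower genes. TTTGAA, the core of the cell cycle homology region at which mitotic genes are silenced in resting cells, was found in 55.6% of them, against 12.4% and 17.8%. GGCGGGA, the E2F type, was found in 33.3%, against 19.7% and 13.1%. Both strands were searched from 250 bases before to 50 bases after the start, and 10287 of the 12867 genes matched a RefSeq promoter on GRCm38.p6. The stretches are the 150 bases before the start, 5′ to 3′ on the strand of the gene, and capitals mark CCAAT or its complement ATTGG, and TTTGAA.
Mki67, chr7:135716380-135716529, minus strand: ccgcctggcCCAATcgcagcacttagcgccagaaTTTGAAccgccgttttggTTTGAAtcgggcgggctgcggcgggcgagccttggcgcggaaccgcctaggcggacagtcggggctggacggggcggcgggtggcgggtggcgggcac
Ccnb2, chr9:70421555-70421704, minus strand: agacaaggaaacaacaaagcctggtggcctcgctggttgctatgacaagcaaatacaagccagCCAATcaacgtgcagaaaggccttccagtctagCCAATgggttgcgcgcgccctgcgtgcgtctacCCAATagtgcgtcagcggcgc
Cdk1, chr10:69352913-69353062, minus strand: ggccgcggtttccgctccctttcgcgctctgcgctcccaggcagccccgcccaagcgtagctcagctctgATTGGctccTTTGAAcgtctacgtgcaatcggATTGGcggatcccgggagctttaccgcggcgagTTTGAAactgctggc
Ccnb2 holds CCAAT at 87, 54 and 21 bases before the start, and Cdk1 holds it at 80 and 48 bases with TTTGAA at 71 and 15. The other motifs searched in all promoters were CACGTG, the E-box, in 9.65% of all promoters, 5.72% of those of lower genes and 8.11% of those of higher genes; AGGTCA, the hexamer to which nuclear receptors bind, in 13.1%, 17.5% and 23.0%; and TATAAA in 7.63%, 11.8% and 14.9%. No test was made.

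Genes of glutathione metabolism and of the NRF2 response, by which cells meet oxidants, were lower. Of 23 members 13 were lower and 2 higher, with a median of -0.45. Gsta1, a glutathione transferase, had counts from 15 to 70.2 (median 48) with GDF15 and from 345 to 1357 (median 599) with pair-feeding (log2 fold change -3.93, SE 0.38, adjusted p = 1.39e-21), and the near-identical Gm3776 was at -3.89. Reads of such copies can be split between them. The summed counts of Gsta1 to Gsta4 and Gm3776 overlapped, 28871 to 40648 with GDF15 and 26867 to 32824 with pair-feeding, and Gsta3, which makes up most of the sum, was higher at 0.31. Nqo1, a quinone reductase, fell by 0.73, and Cbr3, a carbonyl reductase, fell by 2.81. The stress list of the integrated stress and unfolded protein responses had 2 of 22 lower and 2 higher. Each is 9.09%, under the 14.7% and 14.8% over all genes. Atf3, an early stress factor, fell by 1.22. Of 14 p53 targets 5 were lower (35.7%).

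Of 24 genes of amino acid breakdown and the urea cycle 21 were higher, with a median of 0.69, and the median was also above 0 with total counts, at 0.53. Without GDF15 replicate 4, 19 were higher. Cps1, the first enzyme of the urea cycle, had counts from 56422 to 78355 (median 69871) with GDF15 and from 25218 to 45088 (median 31714) with pair-feeding (log2 fold change 1.04, SE 0.15, adjusted p = 6.97e-10), and vehicle livers had 32641 ± 8292 (SD, n = 6). Agxt, which transfers amino groups to glyoxylate, rose by 0.92, Got1 by 1.17 and Hpd by 0.93. Tat, the tyrosine aminotransferase, was at 1.3 with all livers and at 0.82 without GDF15 replicate 4 (adjusted p = 0.0575). Of 14 periportal genes 10 were higher and 3 lower, and of 16 pericentral genes 8 were higher and 1 lower; Glul, the glutamine synthetase of cells around the central vein, was at 0.01 (adjusted p = 0.897). With total counts the pericentral genes were 4 higher and 2 lower, with a median of 0.08. The periportal count rests in part on urea cycle genes that both lists hold. Of 16 hepatocyte identity genes 7 were higher, among them Hnf4a at 0.52 and Alb, albumin, at 0.41, and their medians were 0.47 in replicates 1 to 3 and 0.02 in replicates 4 to 6; with total counts 6 were higher, with a median of 0.08.

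Genes of plasma proteins were higher, in part through a single liver. Of 26 acute-phase and complement genes 15 were higher with all livers and 12 without GDF15 replicate 4. Saa1, the serum amyloid that inflammation induces, had counts from 407 to 68458 (median 4341) with GDF15 and from 2018 to 4039 (median 2680) with pair-feeding, and Saa2 had counts from 225 to 66104 (median 2361) with GDF15 and from 1205 to 2979 (median 1713) with pair-feeding. Replicate 4 was the highest for both. With it the log2 fold changes were 2.38 and 2.79 (adjusted p = 0.0106 and 0.00726), and without it they were 0.63 and 0.46 (adjusted p = 0.407 and 0.585). The fibrinogen chain Fgb was at 0.77 with replicate 4 and at 0.62 without it (adjusted p = 2.89e-11).

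Cytochromes and transporters of drug and steroid metabolism held many of the largest rises. Of 12 Cyp2c genes 9 were higher, with a median of 1.08. Cyp2c29 had counts from 20072 to 27107 (median 23960) with GDF15 and from 4445 to 11103 (median 8590) with pair-feeding (log2 fold change 1.52, SE 0.22, adjusted p = 3.95e-10), and Cyp2c54 had counts from 3314 to 5518 (median 3754) with GDF15 and from 195 to 1704 (median 1107) with pair-feeding, with replicate 6 the highest (log2 fold change 1.97, SE 0.54, adjusted p = 0.00226). Single Cyp2c genes are uncertain because near-identical copies share reads, but the sum over the family did not overlap, at 63673 to 78821 normalized counts with GDF15 and 20733 to 38895 with pair-feeding. Cyp2b10, a target of the receptor CAR, had counts from 28.9 to 322 (median 72.6) with GDF15 and from 7.47 to 20.5 (median 15.8) with pair-feeding (log2 fold change 2.94, SE 0.60, adjusted p = 2.09e-05), with replicate 2 the highest. The wider list holds the genes of CAR, PXR and the receptor Rxra beside Cyp2a, Cyp2b and Cyp3a genes. In it 3 of 16 were higher (18.8%) and 1 lower (6.25%), against 14.8% and 14.7% over all genes. Rxra, at 0.40, was 1 of the higher genes, and Cyp3a11 was at -0.29 (adjusted p = 0.203). In replicates 1 to 3 alone 7 genes of the list were higher, and in replicates 4 to 6 alone 1 was higher and 4 were lower. With total counts 2 were higher and 3 lower.

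Of 11 organic ion transporters 4 were higher and 1 was lower, and with total counts 4 were higher and 3 lower. Slc22a7, an organic anion transporter, had counts from 630 to 1747 (median 976) with GDF15 and from 206 to 359 (median 278) with pair-feeding (log2 fold change 1.9, SE 0.24, adjusted p = 4.67e-13), and its relative Slc22a26 was at 2.29. Slc22a28 was at 1.55 with all livers and at 1.04 without GDF15 replicate 6 (adjusted p = 0.059). Of 21 genes of bile acid synthesis and transport 6 were higher, among them Cyp7b1 and Cyp27a1 of the alternative pathway, at 0.88 and 0.74, and Abcb11, the bile salt export pump, at 0.63; Cyp7a1, the rate-limiting enzyme of the classic pathway, was at 0.22 (adjusted p = 0.815). Of 19 conjugating enzymes 8 were higher and 2 lower, with 5 higher without pair-fed replicate 1. With total counts 5 conjugating enzymes were higher and 5 lower, and 6 bile acid genes were higher and 5 lower.

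**Figure D4:**
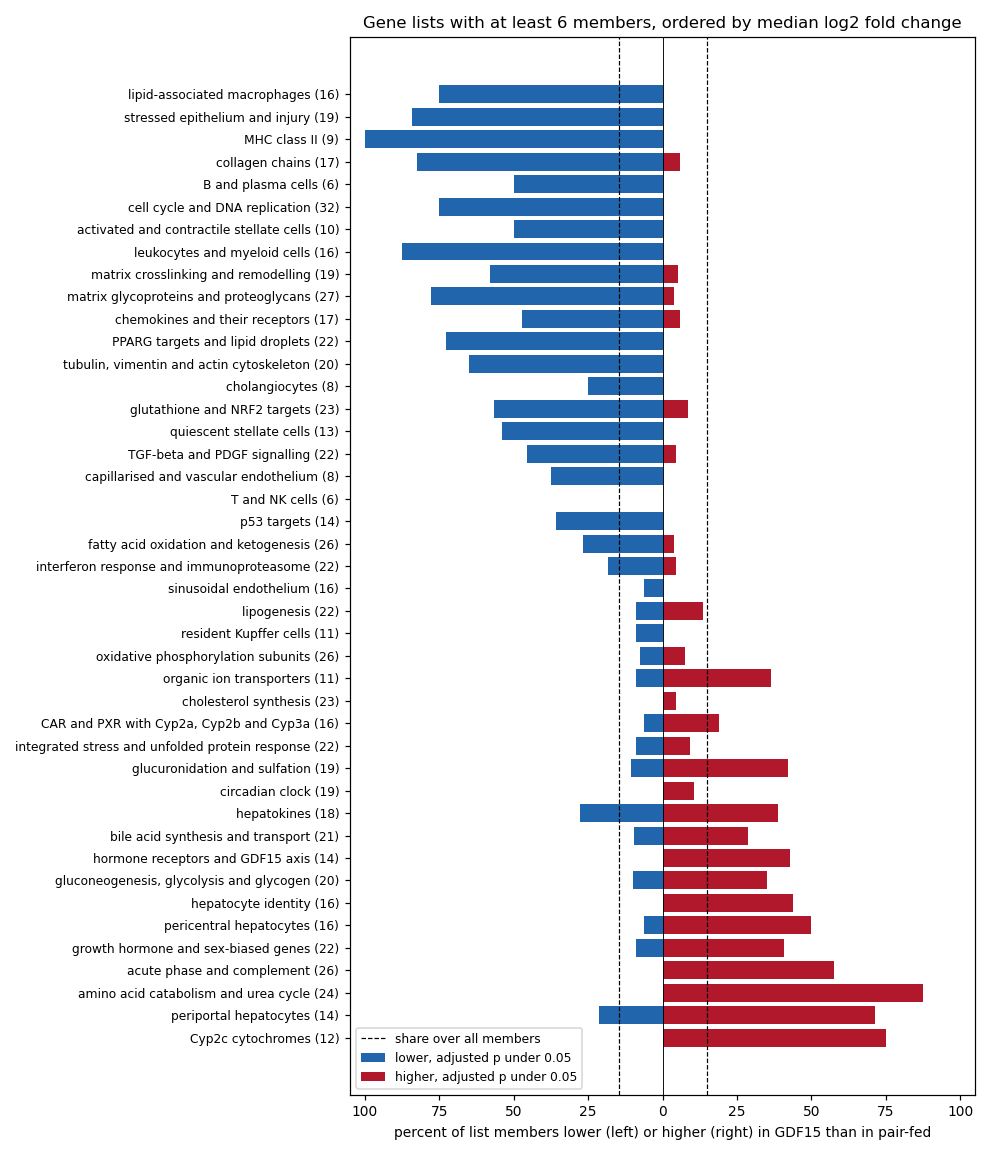
For each gene list, the bar gives the share of measured members that were lower (to the left) and higher (to the right) with GDF15 than with pair-feeding, in percent, at adjusted p under 0.05; the dashed lines mark 14.7% and 14.8%, the shares over all 12867 genes. Only lists with at least 6 members are drawn. Class II genes, lipid-associated macrophages, matrix and injury genes extend to the left, and amino acid breakdown and Cyp2c genes to the right.

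Genes that growth hormone and sex govern gave large rises with large spread. Of 22 members 9 were higher and 2 lower, with a median of 0.49. Hsd3b5, a male-biased steroid dehydrogenase, had counts from 18 to 2361 (median 108) with GDF15 and from 4.31 to 78.5 (median 14.9) with pair-feeding; its log2 fold change was 4.47 with all livers (adjusted p = 0.00187) and 2.63 without GDF15 replicate 6 (adjusted p = 0.0755). Mup7, a major urinary protein, was at 3.59 (adjusted p = 0.00258) and, without that liver, at 2.51 (adjusted p = 0.0259). Genes of either bias rose: Cux2, a factor of female liver, was at 1.43 (adjusted p = 0.00128) and A1bg at 2.79 (adjusted p = 2.59e-10). The summed counts of 20 Mup genes, which share most of their sequence, overlapped at 360241 to 1127956 with GDF15 and 274210 to 592771 with pair-feeding. Mup20, which males release in urine, had the opposite direction, at -0.90 (adjusted p = 3.26e-04). Igf1, which growth hormone drives in hepatocytes, was at 0.43 (adjusted p = 0.00262).

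Secreted factors and receptors moved in both directions. Of 18 hepatokines 7 were higher and 5 lower. Enho, the adropin precursor, had counts from 49.4 to 290 (median 82.5) with GDF15 and from 23.3 to 41.2 (median 28) with pair-feeding, without overlap. GDF15 replicate 4 was the highest. The log2 fold change of Enho was 1.89 (SE 0.38, adjusted p = 1.73e-05), and without that liver it was 1.34 (adjusted p = 1.29e-04). Igfbp2, which binds insulin-like growth factors, rose by 1.34 with all livers. Avpr1a, the vasopressin receptor of hepatocytes, had counts from 363 to 802 (median 535) with GDF15 and from 88.2 to 245 (median 186) with pair-feeding (log2 fold change 1.62, SE 0.23, adjusted p = 1.50e-10). Nnmt, which methylates nicotinamide, had counts from 1328 to 3410 (median 2152) with GDF15 and from 347 to 1127 (median 702) with pair-feeding (log2 fold change 1.66, SE 0.22, adjusted p = 8.65e-12). Hamp2, a hepcidin, was at 1.64, Cnmd at 1.65 and the retinol dehydrogenase Rdh16f2 at 1.49. Among adrenergic, glucagon, insulin and sex hormone receptors 6 of 14 were higher; apart from Avpr1a these ran from 0.24 for Insr to 0.47 for Adrb3, and Insr, Gcgr and Adra1b did not pass when libraries were scaled by total counts. Of 19 clock genes 2 were higher, and of 20 genes of glucose and glycogen metabolism 7 were higher and 2 lower. Without GDF15 replicate 4, 5 glucose genes were higher and 3 lower. With total counts 2 glucose genes were higher and 4 lower, and in replicates 1 to 3 alone 3 were higher and 3 lower, with a median of -0.05.

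Because depth differed between replicates 1 to 3 and 4 to 6, the lists were also fitted in each set of 3 against 3. For 33 of 43 lists with at least 6 members the median had the same sign in both sets. All 18 lists whose median over all livers was at least 0.5 in size were among them. These 18 were picked by a median over the same livers, which makes a shared sign likely in advance, so it is no separate support. The 10 lists with opposite signs included fatty acid oxidation, lipogenesis, CAR and PXR, the stress responses, Kupffer cells and sinusoidal endothelium. Labels name no batch for these sets. With all libraries thinned to the smallest total, 393 genes passed both thresholds, 310 lower and 83 higher. The 2 sets of replicates were not fitted on thinned counts, so the part of depth in their differences was not tested. Single livers also moved some small counts by over 1.5 times. Without pair-fed replicate 4, the CAR and PXR list had 6 higher genes in place of 3, oxidative phosphorylation 5 in place of 2, the clock list 4 in place of 2, and the hepatokines 2 lower genes in place of 5. Without GDF15 replicate 6 the growth hormone list had 5 lower genes in place of 2, and without GDF15 replicate 2 the interferon list had 2 in place of 4. In lists with 2 genes in a direction (lipogenesis, glutathione, glucose metabolism and the stress responses) the count moved by 1 gene without single livers. The 1 higher gene of fatty acid oxidation became 3 without GDF15 replicate 4, and its call was lost without GDF15 replicate 1. Some other lists with 1 gene in a direction went to 0 or 2 without single livers.

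**Figure D5:**
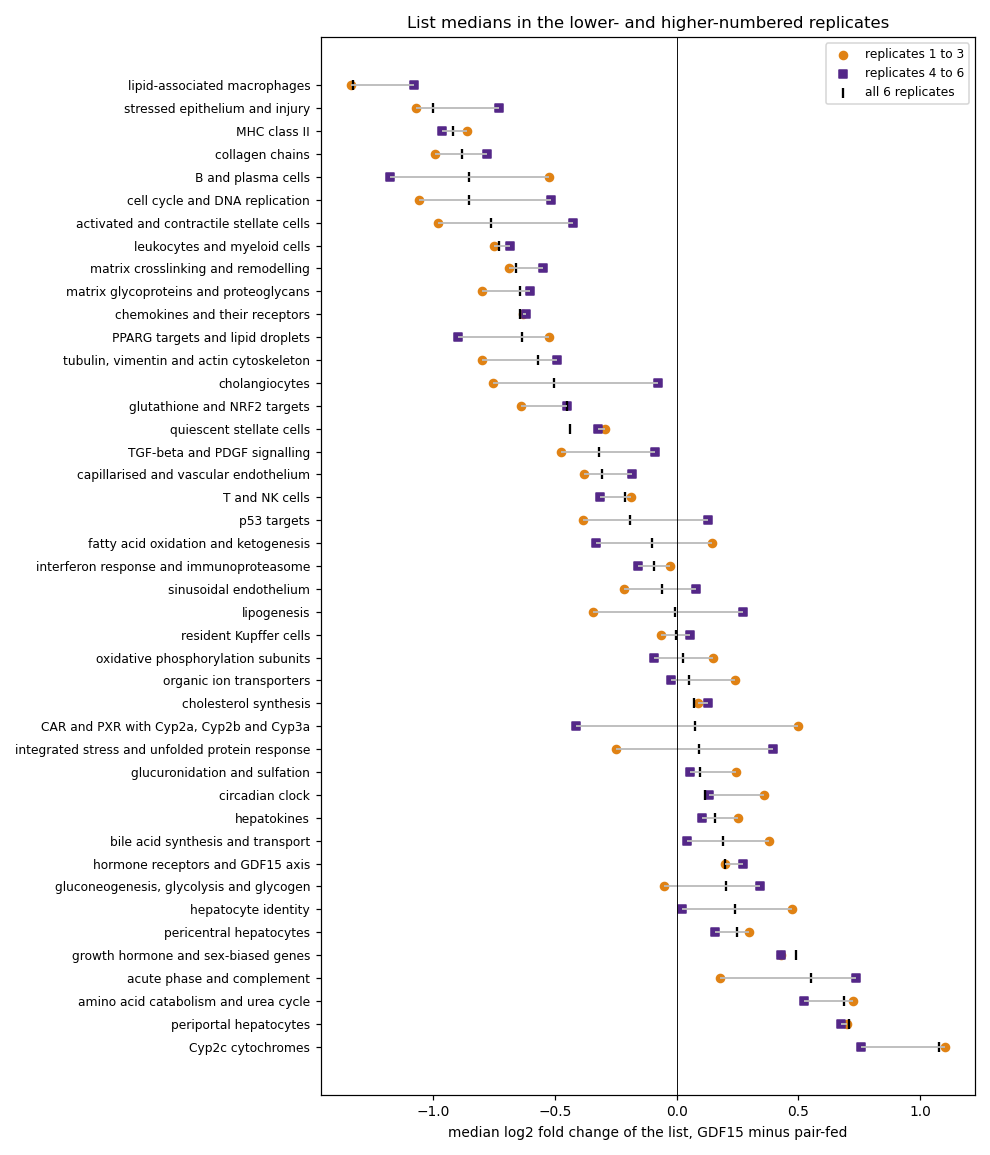
Median log2 fold change of each gene list, GDF15 minus pair-fed, computed from replicates 1 to 3 (3 against 3 livers) and from replicates 4 to 6 (3 against 3), 2 points a list joined by a line, with a tick for all 6 replicates. Matrix, macrophage, class II and injury lists lie below 0 in both sets and amino acid and Cyp2c lists above 0 in both, while fatty acid oxidation and lipogenesis lie on opposite sides of 0.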

How the data were processed

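RNA from liver was sequenced with a strand-specific kit in 18 samples, 6 per group. The values the authors deposited are estimated counts, 1 whole number per symbol and liver. The submitters' processing notes list Salmon, Trim Galore, DESeq2 and the build mm10, and their versions are not given in the sources used here. Estimated counts divide reads among near-identical copies, which makes single Gsta, Cyp2c, Mup and Slc22a genes uncertain. Library totals were 16508864 to 35301853 counts, and a floor of 3 counts was 0.085 to 0.182 CPM (counts scaled to library size); such a floor covers counting error only. The deposited table held 16245 genes.

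All 18 samples were fitted in DESeq2 1.42.0 (R 4.3.3) by group, with median-of-ratios size factors, Wald tests, independent filtering and unshrunken log2 fold changes; normalized counts are counts divided by size factors. Calls used an adjusted p of 0.05 over the whole table, with or without an absolute log2 fold change over 1. edgeR 4.0.16 was an alternative. The code was tested on simulated data. Each fit was repeated without each sample, with other scalings and with other sets of libraries.

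The 12867 genes, the gene lists and the tests were chosen with earlier results of these data known. Genes named are the 12 largest falls and 12 largest rises past both thresholds with a mean of at least 50 and no overlap, the 5 largest falls and rises in mean count, up to 4 genes per list by adjusted p with the first 3 markers of each cell type, and Gdf15. Col1a1, Timp1, Hsd3b5, Saa1, Saa2, Tat, Got1, Plin2, Cd36, Tubb2b, Ccnb2, Cdk1 and the genes of the closing section's observations were chosen after their values were seen, as were others given without full statistics. Genes at the edge of the count filter were low: 149 genes reached 10 counts in 5 of the 12 libraries and had a median of 8.75, and 134 reached it in 6 and had a median of 9.94. Of the 12867 genes 20 passed through one group alone. Promoters are RefSeq sequences on GRCm38.p6, matched by symbol; the positions are of that assembly and the count table holds none.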

Additional observations from a re-analysis of the deposited data

Results flagged for a closer look

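Among the values named in the text, 436 groups of 6 livers were searched for a highest or lowest liver set off from the other 5. The limit was Dixon's critical value for 6, and 39 groups (8.94%) held such a liver. GDF15 replicate 4 gave 18 of these, as normalized counts. Chance gives about 5% for independent groups of genes picked without regard to their values. That rate cannot be used as a yardstick here. Some genes, among them Saa1, Saa2, Itih3, Itih4, C3, Tat and Hamp, were chosen after their values were seen. Related genes such as Fga, Fgb and Fgg were flagged for the same liver. The tally of each liver therefore depends in part on the choice of genes. GDF15 replicate 4 was the highest of its group at 290 for Enho, 144899 for Fgb, 121091 for Fgg, 165347 for Fga, 17905 for Lpin1, 68458 for Saa1, 66104 for Saa2, 48638 for Itih3, 122722 for Itih4, 246823 for C3 and 70252 for Tat. GDF15 replicate 4 was the lowest of its group at 24004 for Acaa1b, 415 for Colec11, 252 for Rgs5, 19.3 for Acta2, 471 for Plvap, 1526 for Ndufb5 and 1873 for Hamp. Its high values lie mostly in acute-phase and plasma protein genes and its low values mostly in stellate and endothelial genes. Nothing in the labels sets this liver apart, and the part of these values in the results was not tested.

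The other 21 fell on 10 libraries. Pair-fed replicate 2 was the highest of its group at 1357 for Gsta1. GDF15 replicate 2 was the highest of its group at 322 for Cyp2b10 and 96285 for Ass1. GDF15 replicate 2 was the lowest of its group at 1.03 for S100a9. GDF15 replicate 6 was the highest of its group at 5518 for Cyp2c54, 387 for Slc22a28, 294185 for Mup7, 2361 for Hsd3b5 and 32031 for Serpina1e. GDF15 replicate 1 was the highest of its group at 751 for Col3a1 and 288 for Scd2. Pair-fed replicate 3 was the highest of its group at 469 for Vsig4. Pair-fed replicate 4 was the highest of its group at 52.0 for Cd79b and 1113 for Fkbp5. Pair-fed replicate 1 was the highest of its group at 89.4 for Krt19 and 331 for Tuba1a. GDF15 replicate 5 was the highest of its group at 3780 for Ugt2b35. GDF15 replicate 3 was the highest of its group at 72.7 for A1bg and 29.7 for Ccna2. Pair-fed replicate 6 was the highest of its group at 166 for Cfd and 78.5 for Hsd3b5. Fold changes of Hsd3b5 and Mup7 without GDF15 replicate 6 stand in the report.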

How the results depend on the processing

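The count of 388 genes past both thresholds (305 lower, 83 higher) was 228 (173 and 55) against the 3 largest pair-fed libraries alone, 645 (514 and 131) against the 3 smallest, 126 (95 and 31) with shrunken fold changes, 25 (24 and 1) with the threshold inside the Wald test, and 595 (534 and 61) with total counts as size factors. The count of 3797 at adjusted p alone (1893 lower, 1904 higher) was 2016 (981 and 1035) against the 3 largest pair-fed libraries, 2177 (1092 and 1085) in replicates 4 to 6 only, and with total counts 4280 lower and 620 higher. The smaller sets hold fewer samples; other causes were not tested. edgeR gave 373 and 3589, and libraries thinned to the smallest total gave 393 and 3620. Leaving out each sample in turn gave 328 to 462 genes past both thresholds (251 to 370 lower, 77 to 100 higher) and 3187 to 3901 at adjusted p alone (1606 to 1931 lower, 1581 to 1970 higher). With the replicate number as a block the counts were 413 and 3648, within 1.5 times of those without it. Pairing by number was not detected: deviations of same-numbered livers had a mean correlation of 0.0325 (-0.1996 to 0.1973). Livers of other numbers had a mean of -0.0065, and 2 samples correlated best with their own number. Such correlations cannot tell whether a pair-fed mouse was matched by number to the GDF15 mouse that set its ration. Under the block the calls of Saa1, Saa2, Cd79b and Selenop were lost (adjusted p = 0.289, 0.396, 0.0578 and 0.0693). Of 196 called genes in the text or its lists, 176 passed without each sample in turn, 189 with edgeR, 192 with the block, 187 with total counts and 151 against the 3 largest pair-fed libraries. The only reversal among them was Cyp2e1, at 0.46 with all livers and -0.0584 in replicates 4 to 6 only (adjusted p = 0.827). At these depths 3 counts are 0.085 to 0.182 CPM, and the T and NK cell genes summed to at most 7.36 CPM.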

Other observations

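Some hormone-responsive and metal-binding genes differed among the GDF15 livers. Mt1 and Mt2, metallothioneins that bind zinc and rise with glucocorticoids and metals, had normalized counts from 755 to 5881 (median 4403) with GDF15 and from 568 to 1938 (median 840) with pair-feeding for Mt1 and from 391 to 3778 (median 3052) with GDF15 and from 244 to 736 (median 339) with pair-feeding for Mt2. GDF15 livers 1 to 4 were the high ones, and livers 5 and 6 lay within the pair-fed range for both genes. The log2 fold changes were 1.8 and 2.46 (adjusted p = 0.00114 and 4.39e-05); in replicates 4 to 6 alone Mt1 was at 0.66 (adjusted p = 0.61). Fkbp5, a chaperone partner of the glucocorticoid receptor, had counts from 827 to 2887 (median 1595) with GDF15 and from 379 to 1113 (median 548) with pair-feeding (log2 fold change 1.45, SE 0.30, adjusted p = 2.13e-05) and was at 0.78 in replicates 4 to 6 alone (adjusted p = 0.231).

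The iron hormone gene Hamp had counts from 1873 to 25151 (median 19131) with GDF15 and from 1161 to 5549 (median 3366) with pair-feeding (log2 fold change 2.41, adjusted p = 7.39e-06), with GDF15 replicate 4, the liver high in serum amyloid, the lowest of its group. The serpin Serpina1e and the organic anion carrier Slco1a1, both male-biased, had log2 fold changes of 2.7 and 2.19 with all livers and of 1.5 and 1.49 without GDF15 replicate 6 (adjusted p = 0.0213 and 0.175). Slco1a1 also did not pass without GDF15 replicate 5 or without pair-fed replicate 1, 2, 3 or 5 (adjusted p = 0.0571 to 0.0664), and in replicates 1 to 3 alone Serpina1e was at 0.23 (adjusted p = 0.85). Cfd, the fat-cell protease adipsin, had counts from 8.44 to 13.3 (median 9.66) with GDF15 and from 30.2 to 166 (median 58.1) with pair-feeding (log2 fold change -2.82, adjusted p = 4.68e-08).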
